A study of Homo sapiens with 4 samples.

Results

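The AP-1 family genes were followed at their ATAC-seq peaks. ATAC-seq uses a transposase that cuts open chromatin and leaves sequencing adapters there, so the reads in a peak measure how accessible that site was. AP-1 is a dimer of basic leucine zipper transcription factors. The 9 genes looked for were those of the FOS proteins (FOS, FOSB, FOSL1 and FOSL2), which bind DNA only with a partner, of the JUN proteins (JUN, JUNB and JUND), which pair with FOS proteins or with each other, and of BATF and ATF3, relatives that compete for or join these dimers. Members were all peaks that the annotation of the authors' deposited first table assigns to 1 of these symbols. This gave 19 of 20556 peaks, for 8 of the 9 genes, and 13 of them overlapped 13 of the 13577 peaks of the authors' deposited second table.

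FOS, FOSB, JUN, JUNB and ATF3 are immediate early genes: kinase signals switch them on within minutes, through factors that already sit on their promoters. In blood cells AP-1 is known for its part in myeloid differentiation and in responses to cytokines and stress, and BATF for its role in lymphocytes. Dimers of FOS and JUN read the AP-1 element, whose letters are TGACTCA, and dimers with ATF proteins read the related cyclic AMP response element (CRE), TGACGTCA.

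Libraries came from Kasumi-1, an acute myeloid leukaemia line with the t(8;21) translocation that fuses RUNX1 to RUNX1T1. In 2 libraries SETD8 was knocked out with CRISPR/Cas9 and 2 controls carried sgNT. All 4 shared the line and the culture medium. SETD8, now KMT5A, places a single methyl group on histone H4 at the lysine known as H4K20. The guide sequences, the time after editing and whether cells were pooled or cloned are not given in the sources used here. GEO's labels do not say whether libraries of a group came from separate cultures, so any spread between them may be technical.

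The first table names no library and takes its direction from the name of the deposited table, so it gives 1 fold change (knockout against control, as log2) and 1 mean level per peak. The second table compares the knockout and control libraries numbered 2, with 2091322 reads in peaks for the knockout and 5348110 for the control. On the scale of the deposited levels the control total was 4906719 normalised reads, so levels were not scaled to equal totals in peaks. What part of the lower values of all peaks comes from depth was not tested. The median log2 fold change over all peaks was -0.87 in the first table, with -1.23 in the second, and the values below are read against these medians. The KMT5A promoter peak stood at -0.82 in the authors' deposited first table and at -1.45 in the authors' deposited second table, which is 0.05 and -0.22 relative to those medians. An open promoter does not test whether the gene was cut. Of 6 myeloid progenitor markers, CD34, KIT and SPI1 had promoter peaks in both tables, and MPO, CD33 and RUNX1T1 had none in either. Of the 3 markers each of T cells, B cells, erythroid, epithelial and fibroblast cells, between 0 and 1 had a promoter peak in the first table, with 0 in the second. Those in the first table were CD3D (44.0 normalised reads), CD79A (90.5), EPCAM (156.5) and COL1A1 (183.5). The 3 myeloid markers ran from 89.3 to 1113 there. In bulk libraries, fewer cells with an open site and less opening per cell cannot be told apart.

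The AP-1 peaks had lower normalised levels in the knockout, as nearly all peaks did. No peak of any gene passed an adjusted p of 0.05 in the authors' test, so that test sets no gene apart. In the authors' deposited first table the 19 log2 fold changes ran from -1.81 (FOSL2 intron) to -0.25 (just before the FOSB start site). Their median in the authors' deposited first table was -0.91. In the authors' deposited second table the 13 values ran from -1.79 to -1.13, with a median of -1.36. At a log2 fold change of -1 or less there were 6 of 19 AP-1 peaks in the first table, beside 38.9% of all its peaks, and 13 of 13 in the second, beside 76.1%. Below the table's median were 12 of 19 in the first, beside 49.3% of all peaks, and 11 of 13 in the second, beside 49.0%. The 13 all overlap a first-table peak. Of the 11169 second-table peaks that do so, 81.7% were at -1 or less and 53.5% below the median. Promoter peaks, those within 3 kb of a start site, gave 3 of 10 at -1 or less in the first table, beside 42.0% of all promoter peaks, and 9 of 9 in the second, beside 82.8%.

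No AP-1 peak passed an adjusted p of 0.05 in the authors' test. The members' adjusted p ran from 0.731 to 0.881 in the authors' deposited first table and was 0.578 for all 13 in the authors' deposited second table. In the authors' test 0.731 and 0.578 were also the lowest adjusted p of all peaks in these tables. The background of calls was 0.0% in both tables. At an unadjusted p under 0.05 there were 0 AP-1 peaks in either table, beside 1.6% of all peaks in the first and 0.14% in the second. With 1 library per group, the second table has no replicate check, and its intervals below (95%, exact) cover counting error only.

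**Figure D1:**
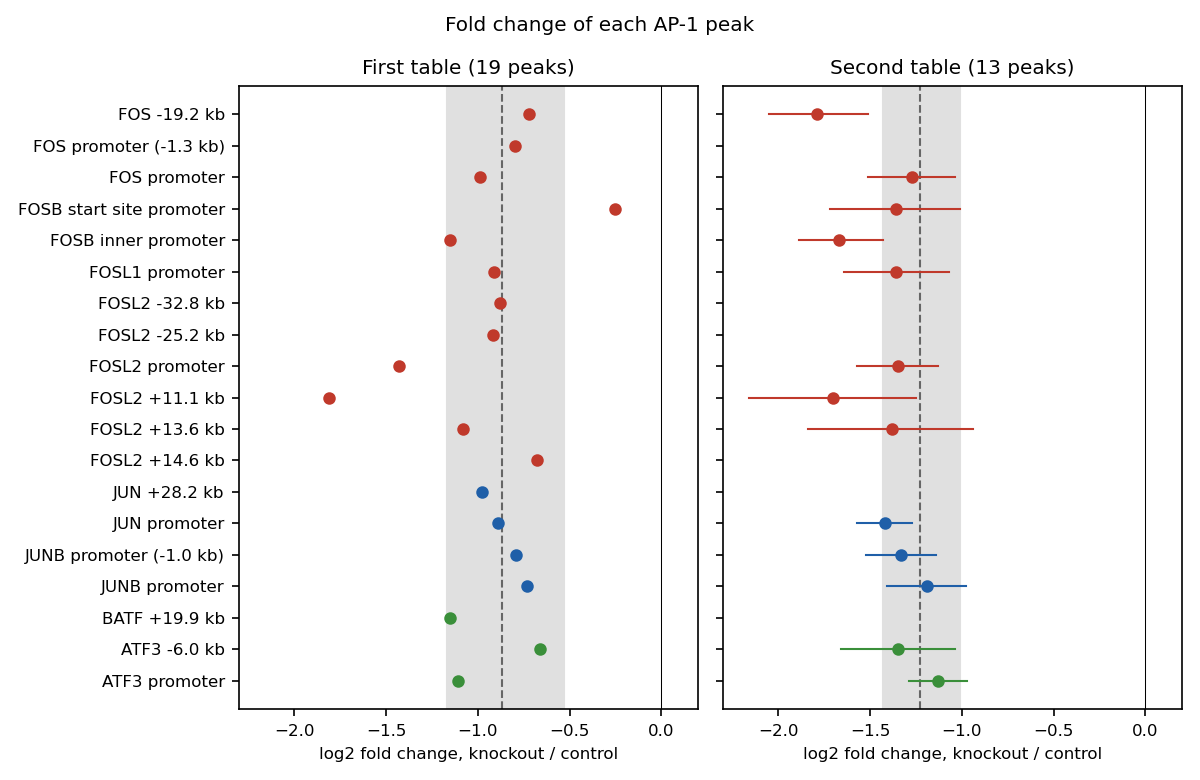
Log2 fold change, knockout against control, of each AP-1 peak in the first table (left, 19 peaks) and the second (right, 13 peaks), with distances from the start site in kb. Red marks FOS genes, blue JUN genes and green BATF and ATF3, the dashed line and grey band are the median and quartiles of all peaks, and bars at right are 95% counting intervals. The first table gives no per-library counts and so has no bars. The FOSL2 intron at 11109 bp is lowest at left (-1.81) and the FOS peak at -19250 bp is lowest at right (-1.79).

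Among the FOS genes, FOS, the founding member and partner of JUN, had 3 peaks. Its start-site peak at chr14:75278456-75279075 had 355 normalised reads as the mean level of the first table, and the letters upstream of the start site are shown because this whole stretch lay inside the peaks of both tables. The sequence is from RefSeq (GRCh38.p14), plus strand, chr14:75278578-75278827, and capitals mark a GC box, the CRE core TGACGT and a TATA box.
FOS: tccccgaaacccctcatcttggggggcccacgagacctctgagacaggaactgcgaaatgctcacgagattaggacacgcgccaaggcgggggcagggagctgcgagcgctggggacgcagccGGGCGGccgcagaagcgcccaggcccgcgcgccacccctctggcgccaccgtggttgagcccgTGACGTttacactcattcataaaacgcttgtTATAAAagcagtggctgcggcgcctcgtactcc

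At the FOS start site, the second table had 205 reads in the knockout library (178 to 235) and 495 normalised reads in the control (454 to 538). The log2 fold change was -0.99 in the authors' deposited first table and -1.27 (-1.51 to -1.04) in the authors' deposited second table. Both lie close to the medians of all peaks, at -0.12 and -0.04 relative to them. A second FOS promoter peak, -1294 bp from the start site, stood at -0.80 in the authors' deposited first table and had no overlapping peak in the second.

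The FOS peak furthest upstream, -19250 bp from the start site at chr14:75258737-75259576, differed in mean level between the tables more than any other AP-1 peak. It is annotated to the first exon of a transcript named by its identifier only, and FOS is only the nearest gene. In the authors' deposited first table its mean level was 10.22 on the log2 scale, at percentile 99.2 of all peaks, with a log2 fold change of -0.72. In the authors' deposited second table its mean level was 8.35, at percentile 73.9, with a fold change of -1.79 (-2.05 to -1.51), from 147 knockout reads (124 to 173) and 505 normalised control reads (463 to 549). The drop in level from the first table to the second, -1.87, lay at percentile 0.403 of the 11169 overlapping pairs, whose median was -0.02, with tables scaled separately. The peak was 840 bp wide in the first table and 941 bp in the second. It was 0.15 above the median of the first table and at -0.56 relative to that of the second, so its position among all peaks was not the same in the tables. How uniquely reads map there was not analysed here.

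FOSB, a FOS relative best known from neurons, had 2 promoter peaks whose values differed within the gene. The start-site peak, chr19:45467586-45467964, ended just before the start site in the first table (-31 bp), and only its second-table call spanned that site. Its values in the tables are thus for unlike stretches. This peak overlapped the RefSeq window below by 219 of 300 bases in the first table and by all 300 in the second. Its upstream letters (plus strand, chr19:45467746-45467995) are shown beside FOS because both carry the CRE core and a TATA box at like positions. Capitals mark GC boxes, the CRE core and the TATA box.
FOSB: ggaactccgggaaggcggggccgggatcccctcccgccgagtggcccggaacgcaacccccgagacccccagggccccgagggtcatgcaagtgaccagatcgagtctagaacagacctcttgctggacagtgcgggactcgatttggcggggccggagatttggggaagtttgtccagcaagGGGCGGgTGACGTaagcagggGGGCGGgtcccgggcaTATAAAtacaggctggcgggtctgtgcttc

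The FOSB start-site peak had the least lowered value of all AP-1 peaks in the authors' deposited first table, -0.25, which is at percentile 86.5 of all fold changes there. Its mean level was 143 normalised reads, close to the median peak of that table (142). The inner FOSB peak, at chr19:45469129-45470522 over another annotated start site, stood at -1.15 in the authors' deposited first table. In the authors' deposited second table these peaks had -1.36 (-1.72 to -1.01) and -1.67 (-1.89 to -1.43). The inner peak was the lower in both tables, but the counting intervals of the second table overlapped. The reads behind them were 91 in the knockout and 234 normalised reads in the control at the start site, and 207 and 653 at the inner peak. The median of other peaks in the same 5 Mb of chromosome 19 was -0.62 and -1.22 in the tables, so the inner peak was also low for its region, at -0.53 and -0.45 relative to it.

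FOSL1 (FRA-1), a FOS protein that lacks the strong activation domain of FOS, had 1 peak, at its start site at chr11:65900341-65900848. Its log2 fold change was -0.91 in the authors' deposited first table and -1.36 (-1.64 to -1.07) in the authors' deposited second table, from 137 knockout reads (115 to 162) and 350 normalised control reads (315 to 387). The region's other peaks had medians of -0.93 and -1.16. FOSL1 was thus near its table and its region in the first table, and its interval in the second held the table's median.

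FOSL2 (FRA-2), which shares the activation-poor build of FOSL1, had the most peaks, 6 of the 19, and 3 of the 6 AP-1 peaks at -1 or less in the first table. Without FOSL2, 3 of 13 AP-1 peaks were at -1 or less there. Its start-site peak at chr2:28392256-28393153 covers the upstream letters below (plus strand, chr2:28392608-28392857), shown because FOSL2 is the only member whose RefSeq window matched the AP-1 element itself. That match, TGACTCA, lies 5 to 11 bases after the start site, and capitals upstream mark a GC box on the minus strand and the CRE core.
FOSL2: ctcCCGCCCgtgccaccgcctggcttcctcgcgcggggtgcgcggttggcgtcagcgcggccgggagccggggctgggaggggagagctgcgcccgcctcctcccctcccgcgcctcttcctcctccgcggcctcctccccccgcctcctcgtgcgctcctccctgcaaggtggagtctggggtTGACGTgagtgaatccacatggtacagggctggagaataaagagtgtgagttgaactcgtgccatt

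At the FOSL2 start site the log2 fold change was -1.43 in the authors' deposited first table, at percentile 10.9, and -1.35 (-1.57 to -1.13) in the authors' deposited second table, at -0.12 relative to the median. The second table had 237 knockout reads (208 to 269) and 605 normalised control reads (559 to 653) there. The lowest AP-1 value of the first table was at an intron of FOSL2, 11109 bp after a start site, at chr2:28406620-28407136. It stood at -1.81 in the authors' deposited first table (unadjusted p = 0.104, adjusted p = 0.731), at percentile 2.60 of all peaks. The same site had -1.70 (-2.16 to -1.25) in the authors' deposited second table, from 53 knockout reads (39.7 to 69.3) and 171 normalised control reads (148 to 198). After the median of its level bin (20 bins of equal size) was subtracted, it lay at percentiles 5.04 and 5.42. These are ranks among all peaks of the first and second table, not among peaks of like level. By this measure the intron was the lowest AP-1 peak in both tables. It was singled out here as the lowest AP-1 value of the first table.

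The 4 other FOSL2 sites were closer to the median of the first table. Introns at 13606 and 14639 bp had -1.08 and -0.68 in the authors' deposited first table, and the intergenic peaks at -32807 and -25224 bp had -0.88 and -0.92. Of these 4, the intron at 13606 bp overlapped a peak of the second table, with a fold change of -1.38 (-1.84 to -0.94) in the authors' deposited second table, at -0.15 relative to the median. Other peaks of the surrounding 5 Mb of chromosome 2 were low as well, with medians of -1.14 (78 peaks) and -1.50 (47 peaks) around the intron at 11109 bp. Relative to this region that intron was at -0.68 and -0.20 in the first and second table, and the start-site peak at -0.29 and 0.16. The part of the regional level in these values was not tested.

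**Figure D2:**
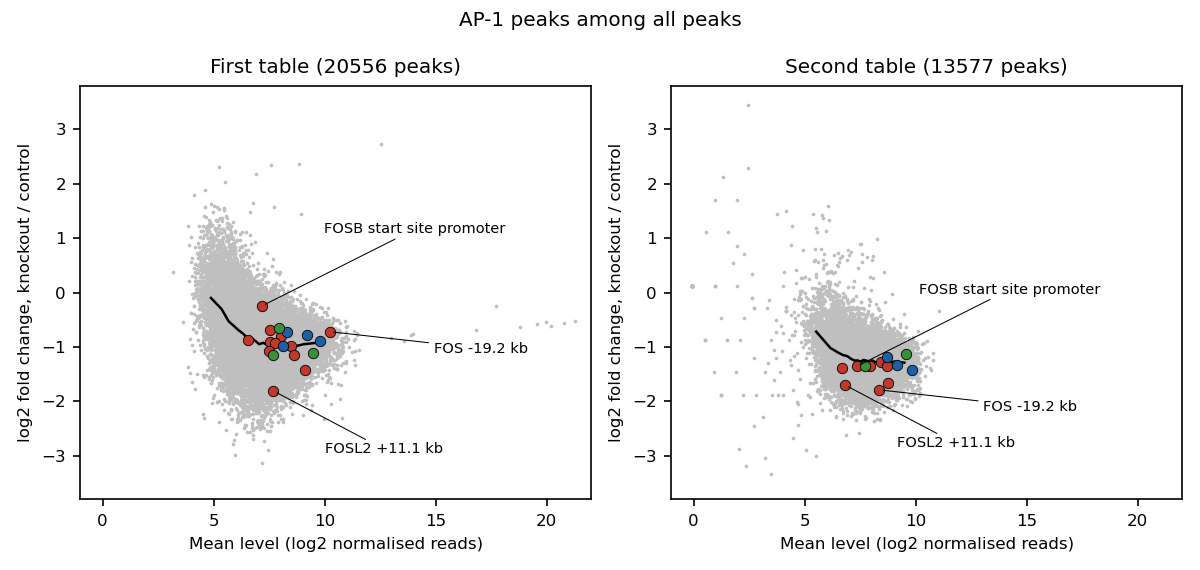
Each dot is a peak, with its mean level (log2 normalised reads) on the x axis and its log2 fold change on the y axis, in the first table (20556 peaks) and the second (13577 peaks). The black line joins the medians of 20 level bins, and coloured points are AP-1 peaks (red FOS genes, blue JUN genes, green BATF and ATF3). Most AP-1 points lie near the line, with the FOSL2 intron at 11109 bp below it in both tables.

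The 4 first-table peaks listed for JUN genes, at JUN and JUNB, ran from -0.98 to -0.73 in the authors' deposited first table, and 0 of 4 were at -1 or less, beside 38.9% of all peaks. Their 3 peaks in the authors' deposited second table, all at promoters, ran from -1.42 to -1.19. At -1 or less were 3 of 3, beside 76.1% of all peaks and 82.8% of all promoter peaks. JUN, the main DNA-binding partner of FOS and a target of JNK, had one of the most open AP-1 promoters, with a mean level of 879 normalised reads in the first table, at percentile 97.7 of all peaks. Its start-site peak at chr1:58783731-58784610 covers the letters below (minus strand, chr1:58784048-58784297). They are shown for the variant TGACATCA, known as the site through which JUN and ATF2 act on the JUN promoter. Capitals mark 2 GC boxes on opposite strands, a CCAAT box and this variant.
JUN: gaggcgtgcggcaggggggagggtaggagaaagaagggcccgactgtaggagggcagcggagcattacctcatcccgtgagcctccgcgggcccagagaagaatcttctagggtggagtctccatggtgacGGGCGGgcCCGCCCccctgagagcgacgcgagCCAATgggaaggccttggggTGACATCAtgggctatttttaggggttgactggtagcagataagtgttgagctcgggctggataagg

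The JUN start site had 498 reads in the knockout library (455 to 544) and 1333 normalised reads in the control (1265 to 1403), the highest counts of any member. The log2 fold change was -0.89 in the authors' deposited first table, at -0.02 relative to the median, and -1.42 (-1.57 to -1.27) in the authors' deposited second table, at -0.19. With these counts the second-table interval did not hold the table's median of -1.23. A JUN peak 28234 bp after the start site stood at -0.98 in the authors' deposited first table and overlapped no peak of the second.

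JUNB, a JUN protein that often restrains JUN and is known as a brake on myeloid growth, had 2 promoter peaks. The letters upstream of its start site (plus strand, chr19:12791236-12791485) are given for contrast, since among the FOS and JUN windows with a start-site peak they hold none of the CRE forms searched. Capitals mark a CCAAT box and a TATA box, and 215 of the 300 window bases lay in the first-table peak and 287 in that of the second.
JUNB: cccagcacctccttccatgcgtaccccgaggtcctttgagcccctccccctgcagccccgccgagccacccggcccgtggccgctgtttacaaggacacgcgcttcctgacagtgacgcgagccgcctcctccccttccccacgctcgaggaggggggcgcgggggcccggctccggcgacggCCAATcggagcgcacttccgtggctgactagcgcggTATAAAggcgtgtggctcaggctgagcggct

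At the JUNB start site (chr19:12791321-12791755) the log2 fold change was -0.73 in the authors' deposited first table and -1.19 (-1.41 to -0.98) in the authors' deposited second table, 0.14 and 0.04 above the medians. The second table had 254 knockout reads (224 to 287) and 580 normalised control reads (536 to 627). The peak -1004 bp upstream stood at -0.79 and -1.33 (-1.52 to -1.14) in the authors' deposited tables, from 322 knockout reads (288 to 359) and 809 normalised control reads (757 to 865). Its region of chromosome 19 had medians of -0.65 and -1.17, and relative to it the upstream peak was at -0.15 and -0.16 and the start-site peak at -0.08 and -0.02.

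JUND, the JUN protein made most steadily in resting cells, had no row under its own symbol. Its start site, position 18281622 of chromosome 19, lies inside the peak chr19:18281221-18282602, which the first table names for the microRNA gene MIR3188. This peak was not counted among the 19. It was among the strongest of the table, at 1531 normalised reads and percentile 99.7. The letters upstream of the JUND start site (minus strand, chr19:18281623-18281872) are shown because JUND was the only member window with the full CRE. Capitals mark that CRE, a further CRE core on the minus strand, GC boxes on both strands and a CCAAT box.
JUND: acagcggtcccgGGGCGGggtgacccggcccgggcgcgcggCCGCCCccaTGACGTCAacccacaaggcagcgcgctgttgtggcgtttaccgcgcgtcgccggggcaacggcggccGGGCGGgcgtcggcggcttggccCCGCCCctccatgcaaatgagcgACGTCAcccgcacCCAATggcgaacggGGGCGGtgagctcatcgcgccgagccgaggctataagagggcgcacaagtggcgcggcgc

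The peak over the JUND start site had a log2 fold change of -0.50 in the authors' deposited first table, at percentile 76.4, and -1.29 (-1.43 to -1.15) in the authors' deposited second table. The second table had 609 knockout reads (562 to 659) and 1489 normalised control reads (1418 to 1563). Relative to the medians it was at 0.37 and -0.06. Without a strand or transcript readout, accessibility there cannot be divided between JUND and MIR3188.

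Of the relatives, BATF, a dimer partner of JUN that lacks an activation domain, had 1 peak, in an intron 19866 bp after a start site (chr14:75542426-75543263). It stood at -1.15 in the authors' deposited first table, with 204 normalised reads, and overlapped no peak of the second. The RefSeq window at the BATF start site lay in no BATF peak of either table. ATF3, a stress-induced factor that often represses, had a start-site peak at chr1:212608288-212609026 and one -5967 bp from another start. The start-site peak had -1.11 in the authors' deposited first table and -1.13 (-1.29 to -0.97) in the authors' deposited second table, from 471 knockout reads (429 to 516) and 1031 normalised control reads (972 to 1093). It was at -0.24 relative to the first median and 0.10 above the second. The upstream ATF3 peak stood at -0.66 and -1.35 (-1.66 to -1.04) in the authors' deposited tables, from 118 knockout reads and 300.2 normalised control reads. The 2 RefSeq windows of ATF3 lay in none of its peaks, so no ATF3 sequence is shown.

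FOS and BATF sit on the same stretch of chromosome 14, with JDP2, a repressor that dimerises with JUN, between them. JDP2 had a promoter peak 149 kb from the FOS start, at -0.52 in the authors' deposited first table and -1.26 in the authors' deposited second table. Relative to the medians this was 0.35 and -0.03. The peaks of these 3 genes did not share 1 value in the first table, running from -1.15 at BATF to -0.52 at JDP2.

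**Figure D3:**
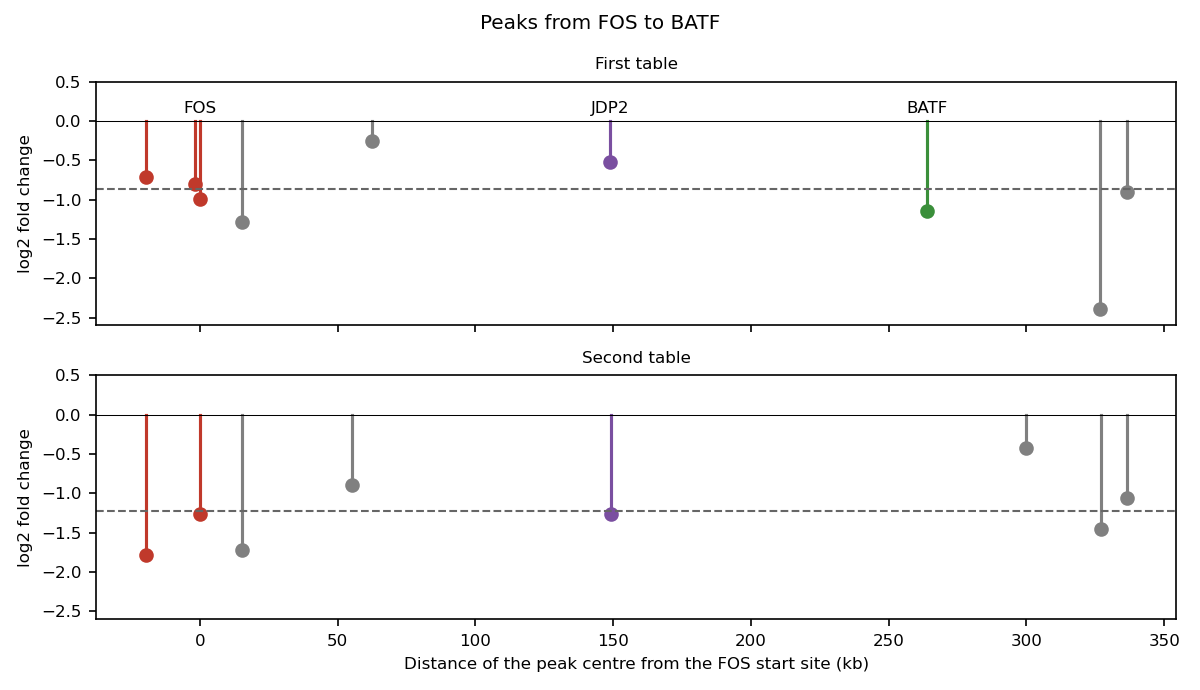
Log2 fold change of every peak from 25 kb before to 350 kb after the FOS start site, by distance of the peak centre in kb, in the first table (top) and the second (bottom). Red marks FOS, purple JDP2, green BATF and grey other genes or none, and dashed lines are the table medians. The peak furthest upstream of FOS is at -0.72 in the upper panel and -1.79 in the lower.

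The second table's libraries can be set side by side for all 13 peaks. In the knockout, reads ran from 53 at the FOSL2 intron to 498 at JUN, and in the control normalised reads ran from 149 at another FOSL2 intron to 1333 at JUN. The knockout's counting interval lay wholly below the control's at all 13, as it did at 93.9% of all peaks of the table and 98.9% of those at least as strong as the weakest AP-1 peak. The intervals of the fold change held the median of all peaks, -1.23, at 9 of 13. Wholly below it were 4 of 13, beside 16.7% of all peaks and 19.3% of those at least as strong as the weakest AP-1 peak. These 4 were the FOS peak at -19250 bp, the inner FOSB peak, the FOSL2 intron at 11109 bp and JUN. Among the 9 promoter peaks, the control level per kb of peak was highest at the upstream JUNB peak (1095), followed by the promoters of FOSL2 (942), JUNB (861) and JUN (831). The counting intervals of FOSL2 and JUNB overlapped, as did those of JUNB and JUN. FOSL1 (638) and ATF3 (628) followed with overlapping intervals, then the inner FOSB peak (496), the FOSB start site (426) and FOS (369), where each overlapped the next. In the first table the mean level per kb at promoters ran from 999 at JUN to 284 at the inner FOSB peak. Such orders depend on the called peak width. The FOS start-site peak was 620 bp wide in the first table and 1341 bp in the second, with mean levels of 355 and 350 normalised reads. Its percentile per kb was 90.1 and 53.1. By reads, FOS was not the lowest promoter in the control, with 495 beside 234 at the FOSB start site and 350 at FOSL1.

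**Figure D4:**
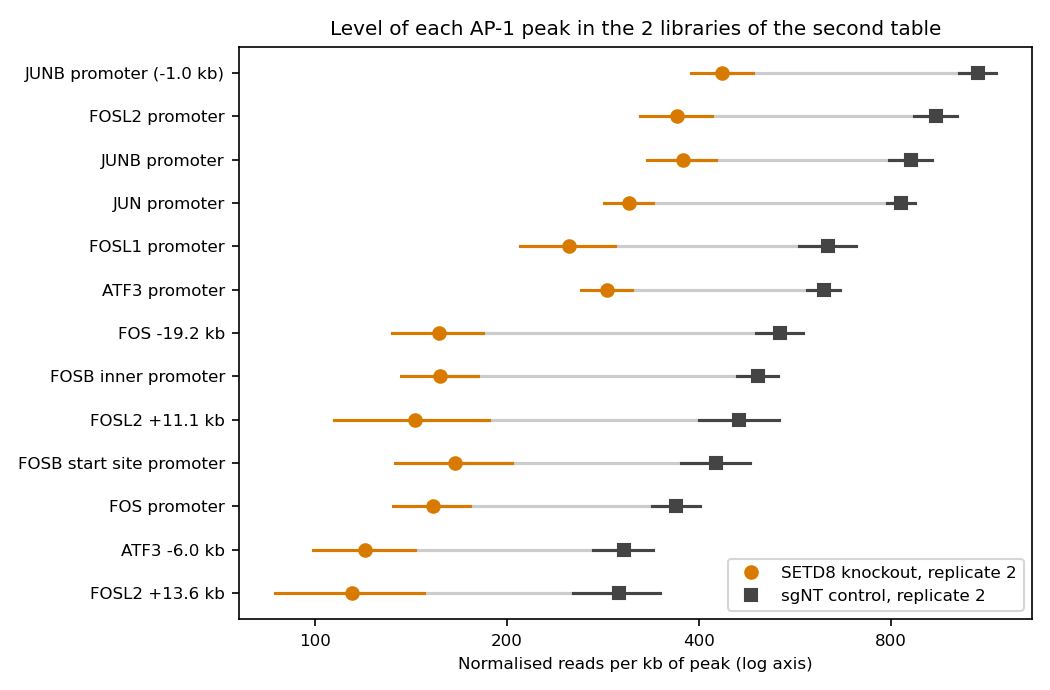
Normalised reads per kb of peak (log axis) of the 13 AP-1 peaks in the SETD8 knockout (orange circles) and sgNT control (dark squares) libraries of replicate 2, ordered by control level. Bars are 95% Poisson intervals for counting error, and there is 1 library per group. The knockout lies to the left of the control at all 13 peaks.

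A limma fit on the 2 fold changes of each overlapping pair, centred on the table medians, called 0 of 13 AP-1 peaks, beside 0.00895% of all pairs (1 of 11169). The FOSL2 intron had a mean of -0.70 with an adjusted p of 0.326 in this fit, the lowest of the members. At an unadjusted p under 0.05 in this fit there was 1 of 13 members, this intron, beside 1182 of all 11169 pairs. As deposited, without centring, the fit called 13 of 13, beside 96.7% of all pairs. The fit takes the tables as separate pairs of libraries, which the first table does not state.

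Across the 9 RefSeq windows of 8 members, the CRE core TGACGT was found on either strand in 4, beside 7.98% of all 35116 windows. The full CRE, which contains that core, was in 1, beside 1.85%, and the variant TGACATCA in 2, beside 2.61%. TGACTCA was in 1, beside 4.95%. TATAAA was in 4, beside 11.5%, CCAAT in 4, beside 34.6%, and GGGCGG in 7, beside 45.0%. The CArG box read by SRF was in 0, beside 1.29%, which says only that its letters are not in these 300 bases. In FOS, FOSB and FOSL2 the CRE core began 64, 60 and 66 bases before the start site (positions -64, -60 and -66), and in JUN the variant began at -67. These matches are descriptions of sequence, and binding was not measured.

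**Figure D5:**
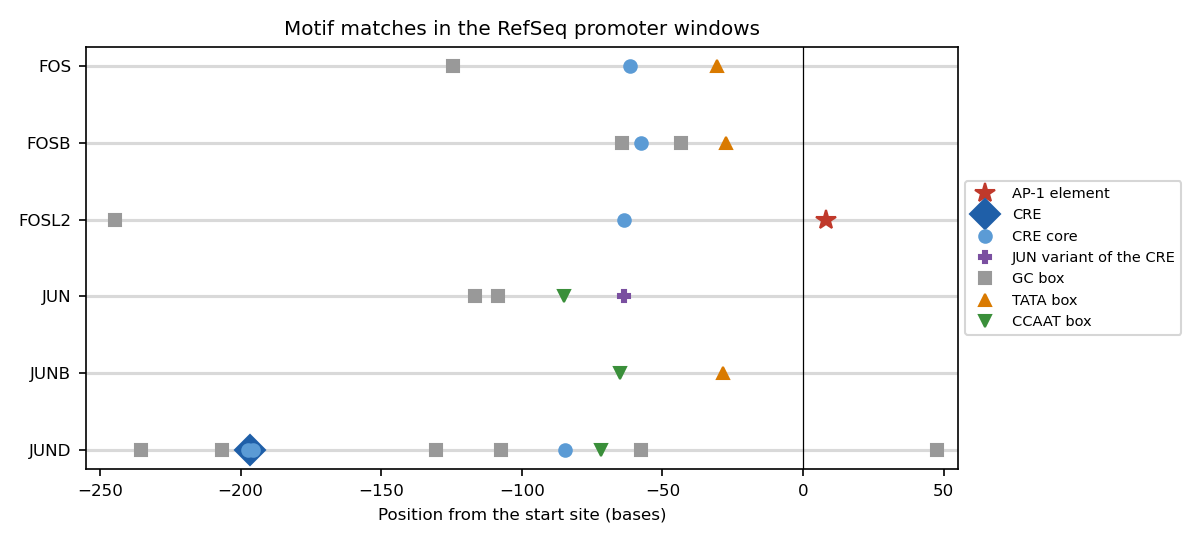
Positions of motif matches, in bases from the start site, in the RefSeq promoter windows of 6 AP-1 genes. Symbols show the motif, matches on both strands are drawn alike, and the diamond of the full CRE in JUND lies under its core. The CRE core or its variant sits between -67 and -55 in FOS, FOSB, FOSL2 and JUN.

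The wider pathway was read from the strongest promoter peak of each gene. For the AP-1 members these had a median of -0.99 over 7 genes in the first table and -1.35 over 7 in the second, beside -0.93 and -1.25 over all genes with a promoter peak. At -1 or less were 3 of 7 and 7 of 7, beside 43.3% and 83.1% of all genes. No gene of the lists below passed the authors' adjusted p of 0.05, and none was higher by 1 or more.

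Other dimer partners, such as ATF, MAF and NFE2 proteins, had medians of -0.94 (11 genes) and -1.16 (8 genes), with 5 and 7 at -1 or less. MAFG, a small MAF protein, was lowest in the authors' deposited first table (-1.45), and ATF6, a sensor of protein folding stress, was highest (0.12, from 39.4 normalised reads). In the authors' deposited second table NFE2L1 stood lowest (-1.81) and BATF3, a close relative of BATF, highest (-0.72). Kinases of the JNK, ERK and p38 cascades, which phosphorylate JUN and FOS or the factors that switch them on, had medians of -0.83 (21 genes) and -1.17 (19 genes), with 8 and 13 at -1 or less. MAPK8 (JNK1), the JUN kinase, was lowest in the authors' deposited first table at -1.53, and MAPK13, a p38 kinase, highest at 0.22. ARAF (-1.52) and MAP3K1 (-0.57) were the extremes of the authors' deposited second table.

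Factors that bind AP-1 gene promoters, such as SRF, the ELK proteins and CREB relatives, had medians of -1.05 (11 genes) and -1.19 (11 genes), with 7 and 10 at -1 or less. ELK4 was lowest in the authors' deposited first table (-1.26) and MEF2C, a MADS-box factor, in the authors' deposited second table (-1.98). The coactivator gene CREBBP was highest in both authors' deposited tables (-0.32 and -0.81). Ligases, phosphatases and other brakes had medians of -0.93 and -1.34 (15 genes each), with 6 and 15 at -1 or less. FBXW7, a ligase subunit that marks JUN for degradation, had the lowest value in the authors' deposited first table (-1.93) but was near the median of the authors' deposited second table (-1.22). DUSP16 was highest in the authors' deposited first table (-0.16), and DUSP2 (-1.67) and SIRT1 (-1.10) bounded the list in the authors' deposited second table.

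Known AP-1 target genes had medians of -0.68 (14 genes) and -1.24 (8 genes), with 3 and 7 at -1 or less. BCL2L11, which encodes the death protein BIM, was lowest in the authors' deposited first table (-1.08) and CCL2, a chemokine, highest (-0.32). PLAU, the urokinase gene (-1.50), and CD44, an adhesion receptor (-0.73), were the extremes of the authors' deposited second table. With the level trend removed, the medians of this list were 0.26 and 0.03, and those of the other 4 lists ran between -0.11 and 0.11 in both tables.

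Genes whose promoter peaks had fold changes most like those of FOS, JUN and JUNB were sought among 5515 genes with joined promoter peaks, by distance over the 2 centred fold changes. For FOS these were LARP1B, TCP11L1 and LINC01623, for JUN FAM3A, ST3GAL2 and DHX35, and for JUNB TOM1L2, CDK4 and PSMC3, all within 0.01 on the log2 scale. With 2 values per gene and values rounded to 2 decimals, such matches are frequent.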

How the data were processed

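ATAC-seq was run on 50000 cells per library with a one-step kit and 150-base paired-end reads, per the labels' protocols. Per the submitters' processing notes, MACS2 2.1.2, Bowtie2, ChIPseeker, cutadapt, deepTools and SAMtools were used on hg38, with no order or settings given. Transposase shift, duplicate removal, scaling and the test behind the p-values are steps not given in the sources used here.

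Values are the authors' 2 deposited tables of log2 levels, log2 fold changes, p-values and adjusted p-values per peak. The second is read per the file headers, the first by column order and ranges, and 2 of its columns were not used because their libraries are not named. Deposited levels of the second table were whole reads in the knockout and reads times 0.918 in the control (100% of 144 and 121 low values within 0.005).

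Peaks of the second table took the gene of the first-table peak they overlapped most (at least 1 bp, 11169 peaks). Reads taken back from levels are limited by their 2 decimals. Levels were also divided by peak width. Intervals are 95% exact Poisson (reads) and exact binomial (fold change). Regional medians used 5 Mb bins with at least 10 other peaks. Of 13240 gene identifiers, 13228 matched RefSeq symbols. Promoter letters are from RefSeq GRCh38.p14, matched by symbol, and FOSL1 had no entry. Members, lists and tests were chosen with earlier results of these data known. Named were all member peaks, the highest and lowest gene of each list per table, and the 3 nearest genes. JUND's peak and the neighbours of the closing section were chosen after values were seen. Alternatives covered fold size, centring, level, region, overlap, promoters and members. Python 3.11.15, numpy 2.4.6, pandas 2.3.3, scipy 1.17.1, matplotlib 3.10.9, R 4.3.3 and limma 3.58.1 were used. The limma fit was an intercept only on the 2 fold changes, with each table assumed to be 1 replicate block. It was tested on simulated data for the 11169 pairs. There it recovered 100 of 100 peaks changed by 1 and 100 of 100 changed by 2, with 14 false calls. The simulated noise was normal with the same spread at every peak (0.205, the median residual spread of the fit). Real pairs need not share that spread, so the recovery does not show how often real changes would be called.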

Additional observations from a re-analysis of the deposited data

How the results depend on the processing

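The count of AP-1 peaks at a log2 fold change of -1 or less depended on scaling: centred on the table median, or with the level trend removed, it was 0 in both tables instead of 6 and 13. The share of all peaks at these 2 settings is not given here. In the first table the count was 18 of 19 at a threshold of -0.5, where the upper quartile of all peaks was -0.53. At promoters only it was 3 of 10, beside 42.0% of all promoter peaks. Without FOSL2 (chosen after seeing the data) it was 3 of 13, beside 38.9% of all peaks. The first-table median of -0.91 became -0.84 with the level trend removed, -0.85 with the regional trend removed, -0.92 at peaks of at least median level, -0.99 at the strongest promoter peaks and -0.92 without the JUN genes. Second-table medians stayed between -1.36 and -1.34. With the replicate block, the count called was 0 of 13 centred, beside 0.00895% of all pairs, and 13 of 13 as deposited, beside 96.7%. In the second table the middle counting interval of the AP-1 peaks spans 0.24 on either side. It covers counting error only, and spread between libraries cannot be measured there.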

Other observations

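Some neighbours of AP-1 genes had lower values than the gene's start-site peak in both tables, and these were picked after their values were seen. A promoter peak of FLVCR2, which encodes a choline transporter, lies 327 kb from the FOS start and stood at -2.39 in the authors' deposited first table and -1.45 in the authors' deposited second table. A promoter peak of the noncoding gene LINC01220, 15.4 kb from the FOS start, had -1.29 and -1.72 in the authors' deposited tables, beside -0.99 and -1.27 at the FOS start site and -0.72 and -1.79 at the FOS peak -19250 bp upstream. Another peak of each gene was higher than the FOS start site. That of FLVCR2, 336.6 kb from the FOS start, had -0.90 and -1.06 in the authors' deposited tables. That of LINC01220, at 62.5 kb, had -0.26 in the authors' deposited first table. The single other peak within 50 kb of JUN in each table, chr1:58816171-58816675 and chr1:58816195-58816705, which overlap, stood at -0.99 in the authors' deposited first table and -2.04 in the authors' deposited second table. No cause was tested for these values.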
